A study of Homo sapiens with 6 samples.

Results

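The hexosamine biosynthetic pathway and the enzymes of O-GlcNAc cycling were followed in LX-2 cells after silencing of OGT. The set comprised 10 genes listed by name for their place in these pathways: OGT, OGA, GFPT1, GFPT2, GNPNAT1, PGM3, UAP1, NAGK, AMDHD2 and EOGT. All 10 were found by their symbol among the 16907 genes of the files, and all 10 were among the 14853 genes that passed a filter requiring at least 10 counts in total. LX-2 is a human hepatic stellate cell line, a cultured model of the liver cells that become matrix-producing myofibroblasts. The 2 groups received an siRNA at 20 nM for 72 h, against OGT (siOGT) or as a control (siControl), and the labels give no other difference between them. Each group had 3 biological replicates of the single cell line, and replicate numbers paired 1 siOGT with 1 siControl library. In the study's reagent list, siOGT is a pool of several siRNAs and siControl a single control siRNA from another supplier, so the target and the make of the reagent cannot be told apart.

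UDP-GlcNAc, the sugar donor for O-GlcNAcylation, is made from the glycolytic intermediate fructose 6-phosphate. GFPT1 or GFPT2 adds an amino group from glutamine in the step that limits the flux, GNPNAT1 acetylates the product, PGM3 moves the phosphate and UAP1 joins the sugar to the nucleotide. NAGK returns free GlcNAc to the pathway, whereas AMDHD2 removes the acetyl group from GlcNAc 6-phosphate. OGT places the sugar on serines and threonines of nuclear, cytosolic and mitochondrial proteins and OGA takes it off, while EOGT uses the same donor in the endoplasmic reticulum on EGF-like repeats of secreted and membrane proteins such as Notch receptors.

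The promoter sequences of OGT and OGA are printed here because these were the only members whose RNA passed the test in the comparison below. Each is a stretch of 200 bases that ends 30 bases before the start of transcription in RefSeq (GRCh38.p14), read on the strand of the gene and printed in lower case, with GC boxes (GGGCGG on either strand) in capitals. The OGA stretch lies on the minus strand at chr10:101818475-101818674 and the OGT stretch on the plus strand at chrX:71532874-71533073.
OGA: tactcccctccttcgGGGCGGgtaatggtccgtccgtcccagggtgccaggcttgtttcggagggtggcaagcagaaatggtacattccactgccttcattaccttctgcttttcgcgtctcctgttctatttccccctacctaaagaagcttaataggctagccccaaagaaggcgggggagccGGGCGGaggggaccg
OGT: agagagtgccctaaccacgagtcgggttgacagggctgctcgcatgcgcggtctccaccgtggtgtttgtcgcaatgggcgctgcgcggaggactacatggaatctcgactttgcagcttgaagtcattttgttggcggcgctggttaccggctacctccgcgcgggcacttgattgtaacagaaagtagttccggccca
The OGA stretch held 2 GC boxes and the OGT stretch none, and 37.9% of all 35116 RefSeq promoter stretches of this length held at least 1. Neither strand of either stretch held a CCAAT box (the letters CCAAT), which 28.2% of all stretches held. The TATA box letters TATAAA, present in 7.24% of all stretches, were also missing, as were the E box letters CACGTG, present in 5.07%. Their G and C content was 58.0% and 58.5%, beside a median of 58.0% over all stretches. These matches describe the letters of the window only. It leaves out the 30 bases next to the start, so a TATA box there would not be seen. Any link between these letters and the changes in RNA was not tested.

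The 6 libraries held between 25996770 and 27966801 expected counts. All 8 markers of stellate cells and myofibroblasts were above 1 CPM (counts scaled to a common library size by library total and TMM factor). Their summed levels were 7848 to 9456 CPM in siControl and 7513 to 9362 CPM in siOGT. VIM and COL1A1 made up most of each sum, and ACTA2 was at only 4.83 to 9.69 CPM. The sums covered opposite shifts. In every pair COL1A1, COL1A2, COL3A1, PDGFRB and VIM were lower in siOGT, while SPARC and TAGLN were higher. COL1A1 was at 2586, 3175 and 2214 CPM in siControl and at 1737, 2423 and 1911 CPM in siOGT. SPARC was at 1375, 1638 and 1385 CPM in siControl and at 1679, 2494 and 1847 CPM in siOGT. ACTA2 differed in direction between pairs. Not all markers of other cell types were among the genes counted. Found were 4 of 6 for hepatocytes, 3 of 4 for endothelial cells, 4 of 4 for cholangiocytes and 3 of 4 for macrophages and leukocytes. The markers found for hepatocytes summed to at most 4.48 CPM in any library. Those of endothelial cells summed to at most 7.86 CPM and those of cholangiocytes to at most 8.20 CPM. Markers of macrophages and leukocytes summed to 123 to 154 CPM in siControl and 169 to 202 CPM in siOGT. Nearly all of that sum was CD68, a lysosomal protein, and the other markers of this list added up to at most 0.855 CPM. Its part in the results below was not tested. The labels give replicate numbers only, and the study describes the replicates as biologically independent experiments, all with 1 cell line. In fits that keep the pairs together, p-values thus set a change against the spread of within-pair differences between cultures of that line. The edgeR fit estimates this spread in large part from all genes together, so it is not that of 1 gene alone.

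The targeted gene was examined first. OGT lies on the plus strand of chromosome X (71533087 to 71575892, hg38). Its level was 177, 137 and 121 CPM in siControl replicates 1, 2 and 3 and 39.9, 27.0 and 29.2 CPM in the matching siOGT libraries. The groups did not overlap, and replicate 1 was the highest library of both groups. The mean fell from 145 ± 28.9 to 32.0 ± 6.94 CPM (SD, n = 3 each), so that 22.5%, 19.7% and 24.1% of the siControl level remained in the 3 pairs. This was a log2 fold change (log2FC) of -2.18 with an SE of 0.073 and a 95% confidence interval (CI) of -2.34 to -2.03 (adjusted p = 2.71e-12, edgeR). Among the 9620 genes that averaged 10 CPM or more, no other had a larger absolute log2 fold change. In RNA from a whole culture, a partial loss in every cell and a full loss in most cells cannot be told apart.

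OGA (chromosome 10, 101784443 to 101818465, minus strand), the hydrolase that opposes OGT, was the other member that changed, and it fell too. The siControl libraries held 98.2, 94.1 and 99.6 CPM and the siOGT libraries 49.8, 33.4 and 38.7 CPM. The siControl values lay close together, the siOGT values spread more, and the lowest siControl library was above the highest siOGT library. The mean went from 97.3 ± 2.87 to 40.6 ± 8.36 CPM (SD, n = 3 each), with 50.7%, 35.5% and 38.9% remaining in the 3 pairs. The log2FC was -1.28 (SE 0.085, 95% CI -1.45 to -1.10, adjusted p = 3.31e-08, edgeR). Only 2 of those 9620 genes had a lower log2FC, OGT itself and ETV4, and 7 had a larger absolute one.

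Both differences passed the test, at an adjusted p of 0.05 or less, in each of the 11 other settings tried, OGT between -2.25 and -2.11 and OGA between -1.43 and -1.17. Without the replicate block, which keeps the pairs together in the fit, the adjusted p-values of edgeR were 0.00233 for OGT and 0.00650 for OGA.

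**Figure D1:**
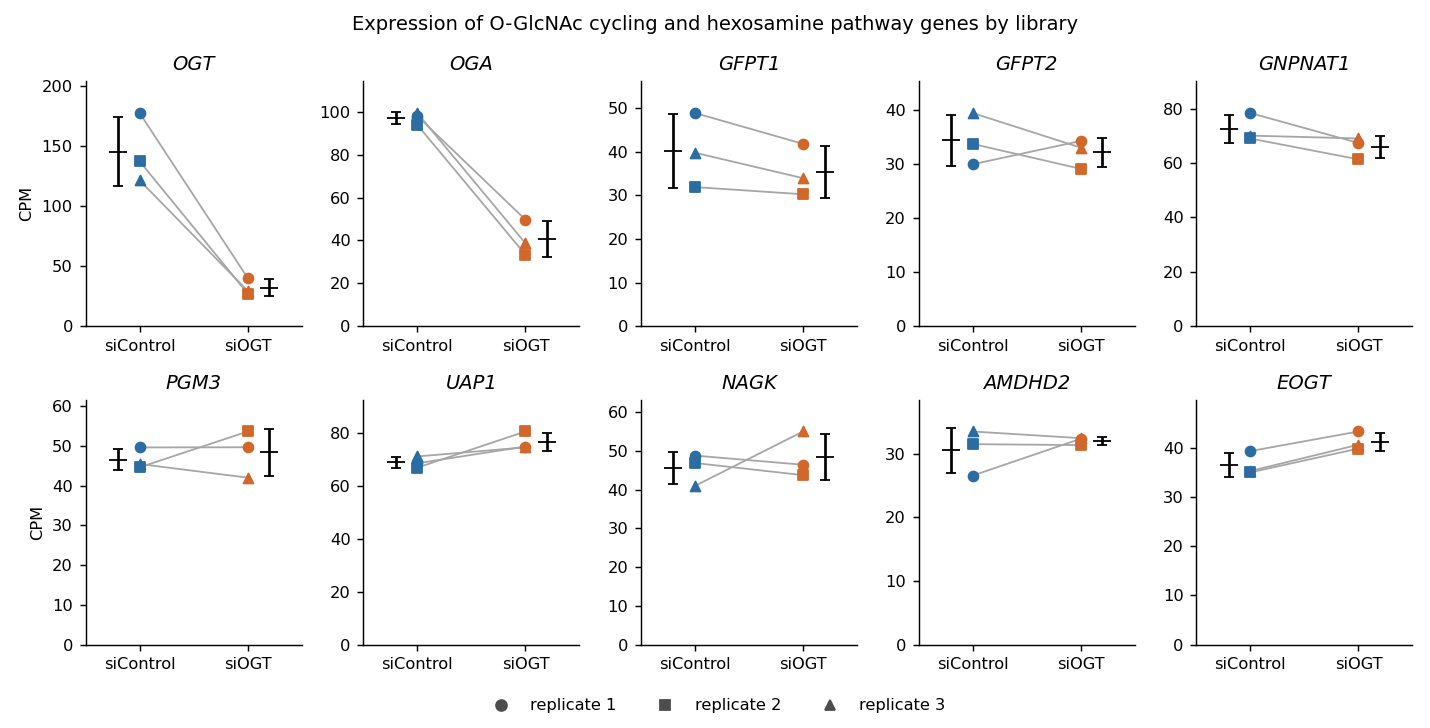
Expression of the 10 genes in each library in CPM, siControl beside siOGT, with a line joining the libraries of a replicate number and bars for the mean and SD of each group. OGT and OGA lie lower in all 3 siOGT libraries, UAP1 and EOGT slightly higher, and the groups of the other 6 genes overlap.

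A gene is said to be called where edgeR gave it an adjusted p of 0.05 or less. Across the transcriptome this held for 3766 of 14853 genes tested, or 25.4%. The 1885 called higher and the 1881 called lower each amounted to 12.7%, whereas scaling by library totals alone gave 2113 higher and 1614 lower. Among the 10 members, 2 were called, both lower and none higher. Without the block, edgeR called 130 genes (0.875%), and the same 2 members were among them. The CPM values of the groups did not overlap for 4 of the 10 members, OGT and OGA being lower and UAP1 and EOGT higher, beside 23.9% of all genes. The median log2FC of the members was -0.02, beside 0.0068 over all genes tested. The share of members called, 20.0%, was thus near that of all genes, and OGT and OGA differed from the other 8 in the size of their fall.

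**Figure D2:**
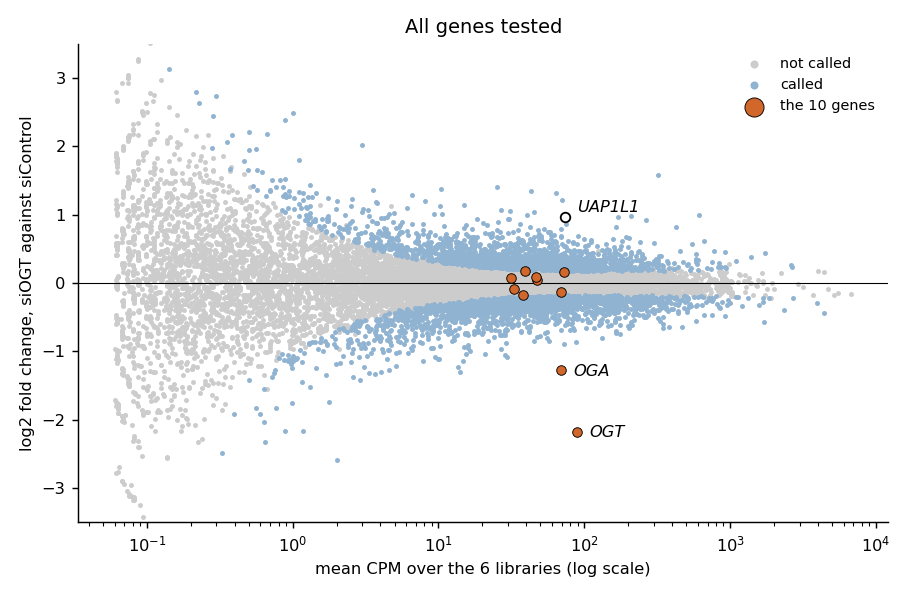
Log2FC, siOGT against siControl, of each gene tested by its mean CPM on a log axis, with called genes in blue and the 10 members in orange. OGT and OGA lie below the genes of like level and the other 8 members near 0, UAP1L1 is circled at 0.96, and 34 genes outside ±3.5 are not drawn.

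It was then asked whether OGT and OGA fell in the same proportion. There were 0.554, 0.686 and 0.822 OGA counts per OGT count in the siControl libraries and 1.25, 1.24 and 1.33 in the siOGT libraries. Hence the ratio was higher in every siOGT library than in any siControl library, and it varied less within siOGT. The log2 ratio went from -0.56 ± 0.28 to 0.34 ± 0.056 (SD, n = 3 each), a difference of 0.90. It was higher in siOGT in all 3 pairs, by 1.17, 0.85 and 0.69, OGT having fallen further than OGA. The two-sided exact permutation test gave p = 0.1, the smallest value that 3 against 3 libraries allow, or 0.2 when adjusted over the 2 ratios tested. Flipping signs within pairs gave an exact p of 0.25, again the smallest possible.

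**Figure D3:**
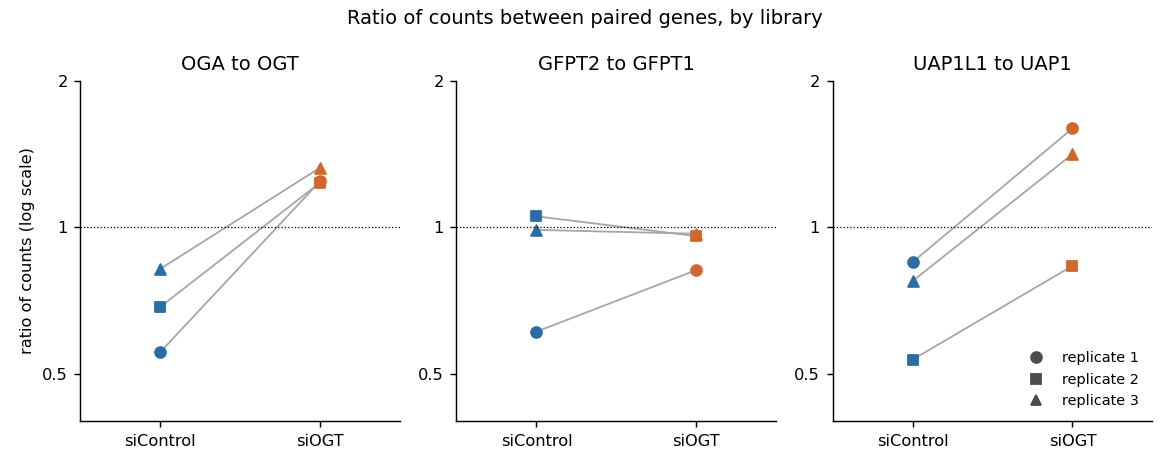
Ratio of OGA to OGT, GFPT2 to GFPT1 and UAP1L1 to UAP1 counts in each library on a log axis, with lines joining libraries of a replicate number. The OGA to OGT ratio lies between 0.554 and 0.822 in siControl and between 1.24 and 1.33 in siOGT, while the GFPT2 to GFPT1 ratios of the groups overlap, and the UAP1L1 to UAP1 ratio, described further on, is higher in siOGT in each pair.

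The enzymes of the 4 steps that make UDP-GlcNAc showed much smaller differences, none of which passed the test. GFPT1 (chromosome 2, 69319780 to 69387250), one of the genes for the first enzyme, was at 49.0, 31.9 and 39.8 CPM in siControl and at 41.9, 30.3 and 34.0 CPM in siOGT. The ranges of the groups overlapped, yet each siOGT library was below its partner, with within-pair log2 ratios of -0.23, -0.08 and -0.23. The log2FC was -0.18 (95% CI -0.33 to -0.027, adjusted p = 0.0792, edgeR). The interval of the single gene left out 0, but the value did not pass the adjustment over all genes. Only 2 of the 6 expected counts of GFPT1 were whole numbers, in contrast to 6 of 6 for OGT and for OGA, and RSEM gives fractions where it divides reads between genes or transcripts.

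GFPT2 (chromosome 5, 180300698 to 180353336), the second gene for this step, had 29.9, 33.7 and 39.4 CPM in siControl and 34.2, 29.1 and 33.0 CPM in siOGT. It was higher in siOGT in pair 1 and lower in pairs 2 and 3. The log2FC was -0.09 (95% CI -0.28 to 0.09, adjusted p = 0.480, edgeR), and it was -0.24 without replicate 1, -0.036 without replicate 2 and -0.014 without replicate 3. The balance between both genes was compared directly. The siControl libraries held 0.610, 1.05 and 0.988 GFPT2 counts per GFPT1 count, and the siOGT libraries 0.817, 0.960 and 0.970. These ranges overlapped, and the log2 ratio differed by 0.086 between the groups with an exact permutation p of 1. Its within-pair differences were 0.42, -0.14 and -0.03, so replicate 1 alone was higher in siOGT, and without that replicate the difference was -0.081.

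GNPNAT1 (chromosome 14, 52775193 to 52791668), which acetylates glucosamine 6-phosphate, was at 78.4, 69.0 and 70.1 CPM in siControl and at 67.4, 61.3 and 69.0 CPM in siOGT. All 3 siOGT libraries were below their partners, although by only -0.02 on the log2 scale in pair 3. The log2FC was -0.14 (95% CI -0.28 to 0.0058, adjusted p = 0.153, edgeR). Without replicate 3 it was -0.20 and passed the test, with an edgeR adjusted p of 0.0399.

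PGM3 (chromosome 6, 83147324 to 83193936), the phosphoacetylglucosamine mutase, gave 49.6, 44.6 and 45.4 CPM in siControl and 49.6, 53.6 and 42.0 CPM in siOGT. The siOGT libraries lay on both sides of the siControl libraries. Its log2FC was 0.05 (95% CI -0.11 to 0.22, adjusted p = 0.679, edgeR), and it was -0.058 without replicate 2. Exons of PGM3 share 7.03% of their bases with DOP1A on the opposite strand, and counting was strand-specific.

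UAP1 (chromosome 1, 162561722 to 162601240), whose product completes UDP-GlcNAc, was at 68.5, 66.9 and 71.1 CPM in siControl and at 74.9, 80.6 and 74.6 CPM in siOGT. Every siOGT library was above every siControl library. The mean went from 68.8 ± 2.15 to 76.7 ± 3.38 CPM (SD, n = 3 libraries per group), or a log2FC of 0.15 (95% CI 0.013 to 0.30). This did not pass the test over all genes (adjusted p = 0.104, edgeR), and the log2FC was 0.095 without replicate 2.

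No change was detected in the enzymes of salvage and return. NAGK (chromosome 2, 71064344 to 71079808), the kinase for free GlcNAc, had 48.8, 46.9 and 41.0 CPM in siControl and 46.5, 43.8 and 55.0 CPM in siOGT. It was slightly lower in pairs 1 and 2 and higher in pair 3 of siOGT, with a log2FC of 0.09 (95% CI -0.10 to 0.27, adjusted p = 0.528, edgeR). Without replicate 3 its log2FC was -0.092. AMDHD2 (chromosome 16, 2520357 to 2531422), the deacetylase, had 26.6, 31.5 and 33.5 CPM in siControl and 32.4, 31.4 and 32.4 CPM in siOGT. The siOGT libraries were within the siControl range. Its log2FC was 0.08 (95% CI -0.10 to 0.25, adjusted p = 0.542, edgeR), and -0.028 without replicate 1. AMDHD2 shares 31.7% of its exonic bases with CEMP1 on the opposite strand. It shares 8.66% with ENSG00000259784 on the same strand, where strand-specific counting cannot separate them. No gene was counted under the name ENSG00000259784, and other names for it were not searched.

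EOGT (chromosome 3, 68975217 to 69013684), the O-GlcNAc transferase of the secretory route, did not follow OGT downwards. The siControl libraries were at 39.4, 35.1 and 35.4 CPM and the siOGT libraries at 43.4, 39.9 and 40.7 CPM. All siOGT libraries were above all siControl libraries by a narrow margin, and the within-pair log2 ratios were 0.14, 0.19 and 0.20. The mean went from 36.6 ± 2.43 to 41.4 ± 1.83 CPM (SD, n = 3 libraries per group), or a log2FC of 0.18 (95% CI 0.029 to 0.32, adjusted p = 0.0748, edgeR). It passed the test when libraries were scaled by their totals alone, at 0.20 with an edgeR adjusted p of 0.0461.

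For the 8 members that were not called, the confidence intervals give an approximate range for what may have been missed. They ranged in all from -0.33 to 0.32 on the log2 scale, so a change of the size seen for OGA lay outside each of them. Their widths rest in large part on a spread shared across genes, not on the 3 pairs of a gene alone. A single pair could lie beyond that range, such as pair 3 of NAGK at 0.42. The counting error of a single value was between 1.45% and 3.75% for the 10 genes.

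**Figure D4:**
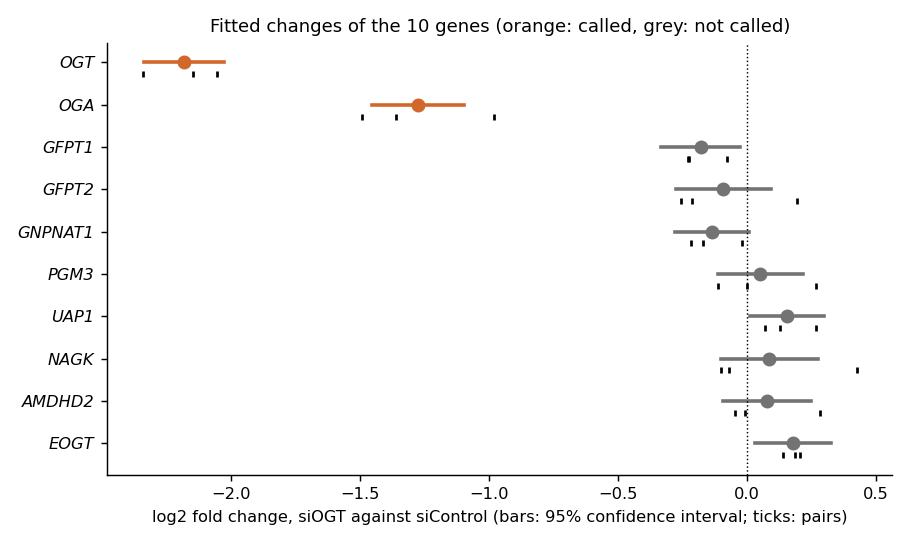
Log2FC, siOGT against siControl, of the 10 genes with 95% CIs from edgeR, and the values of the 3 pairs as small ticks. The intervals of OGT (-2.34 to -2.03) and OGA (-1.45 to -1.10) lie far below 0, and those of the other 8 stay between -0.33 and 0.32.

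Levels were then compared between genes after division by the length of the canonical transcript in GENCODE 44, as CPM per kb. Which transcript LX-2 cells use is not known, so this order is approximate, in particular for GFPT1 with its canonical length of 8665 bases. In siControl, OGT was the most abundant of the 10 at 26.7 ± 5.31 CPM per kb (SD, n = 3), and its 3 libraries lay above all others. UAP1 at 19.3, NAGK at 19.2, OGA at 18.8 and GNPNAT1 at 18.7 CPM per kb followed, with ranges that overlapped. GFPT2 lay below all of these at 11.3 ± 1.57 CPM per kb, and AMDHD2 at 9.62, EOGT at 8.24 and PGM3 at 7.66 CPM per kb came next, each overlapping with its neighbour in this order. GFPT1 was the lowest at 4.64 ± 0.98 CPM per kb, below every library of PGM3. In siOGT, OGA had moved from rank 4 to rank 8 with 7.85 ± 1.62 CPM per kb, and OGT from rank 1 to rank 9 with 5.89 ± 1.28 CPM per kb. The other 8 kept their order relative to one another. In siOGT the ranges of PGM3 and OGA overlapped, as did those of OGA and OGT, while OGT at 4.96 to 7.35 CPM per kb lay above GFPT1 at 3.49 to 4.83 CPM per kb.

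The genes whose 3 within-pair log2 ratios lay closest to those of OGA and of OGT were searched among the genes that averaged 10 CPM or more. The measure was the Euclidean distance over the 3 pairs. Closest to OGA was ETV4, an ETS family transcription factor, with log2 ratios of -1.04, -1.51 and -1.38 beside -0.98, -1.49 and -1.36 for OGA, a distance of 0.060. Its mean level was 19.8 ± 4.24 CPM with siControl but 8.20 ± 3.03 CPM with siOGT (SD, n = 3 each). TMEM154 and KREMEN1, a receptor for Dickkopf proteins, were next at distances of 0.368 and 0.454. For OGT no gene came as close, the nearest being ETV4 at 1.54, OGA at 1.60 and METTL7A at 1.73. Because OGT had the largest absolute log2FC of these genes, distance to it mainly ranks genes by the size of their fall. It cannot show a pattern across pairs that is shared with OGT.

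Genes that feed the pathway, use its product, release its sugar or are related to its enzymes were taken in 4 lists. Their counts are set next to the 25.4% of all genes that were called. Precursor supply covered uptake and handling of glucose, glutamine and acetyl groups and the enzymes that turn glucosamine 6-phosphate back into fructose 6-phosphate. Here 6 of 12 genes were called, 2 higher and 4 lower, with a median log2FC of -0.07. The 2 genes for glucosamine 6-phosphate deaminase, which runs the first step of the pathway backwards, moved in opposite directions. GNPDA1 (chromosome 5, 141991749 to 142013041) was at 111, 78.5 and 98.2 CPM in siControl and at 163, 98.7 and 134 CPM in siOGT. The groups overlapped narrowly, but every pair was higher in siOGT, by 0.56, 0.33 and 0.45 on the log2 scale. The log2FC was 0.45 (SE 0.067, adjusted p = 1.27e-04, edgeR). GNPDA2 fell from 10.4 ± 0.366 to 7.89 ± 1.41 CPM (SD, n = 3 libraries per group), or a log2FC of -0.40 (adjusted p = 0.0242, edgeR).

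On the glutamine side, SLC1A5, a glutamine transporter, fell from 263 ± 6.24 to 215 ± 16.0 CPM, with a log2FC of -0.29 (adjusted p = 0.00312, edgeR). On the glucose side, 2 more called genes of the list were named after their values were seen. SLC2A1, the glucose transporter GLUT1, rose with a log2FC of 0.25 (adjusted p = 0.00725, edgeR). GPI, which makes fructose 6-phosphate, fell by 0.21 on the log2 scale (adjusted p = 0.0235, edgeR). The groups did not overlap for 5 of 12 genes of precursor supply, 4 of 12 of UDP-GlcNAc use, 4 of 6 of the release of GlcNAc and 2 of 8 of the O-glycosylation of EGF repeats, the last 3 lists being described below, beside 23.9% of all genes.

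The list of UDP-GlcNAc use holds genes that use UDP-GlcNAc or related sugars. It also holds UAP1L1, which is related to a gene that makes UDP-GlcNAc rather than to its users. Of its 12 genes 3 were called, all higher, and the median log2FC was 0.0097. UAP1L1 (chromosome 9, 137077517 to 137084539), a paralog of UAP1, had the largest change of any gene in the 4 lists. It was at 58.1, 35.7 and 55.1 CPM in siControl and at 120, 67.1 and 105 CPM in siOGT. Although the spread between replicates was wide, each siOGT library was above all siControl libraries and replicate 2 was the lowest of both groups. The log2FC was 0.96 (SE 0.067, 95% CI 0.82 to 1.10, adjusted p = 5.27e-08, edgeR). UAP1L1 counts per UAP1 count were 0.848, 0.535 and 0.775 in siControl and 1.60, 0.833 and 1.41 in siOGT. This ratio was looked at after the values were seen and was not tested. It was higher in siOGT in all 3 pairs. SLC35D2, a nucleotide sugar transporter of the Golgi, rose with a log2FC of 0.25 (adjusted p = 0.0188, edgeR). NANP, a phosphatase of sialic acid synthesis, rose by 0.24 on the log2 scale (adjusted p = 0.0432, edgeR).

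None of the 6 genes on the list for release of GlcNAc, which holds hexosaminidases and other glycosidases that break down glycans, was called by edgeR or by DESeq2, and 1 had an unadjusted p-value below 0.05 in edgeR. Their log2FCs ranged from -0.21 to 0.12 with a median of -0.07. Of 8 genes for O-glycosylation of EGF repeats, the protein modules that EOGT also modifies, 3 were called, all lower, and the median log2FC was -0.09. LFNG, which extends O-fucose with GlcNAc on Notch receptors, fell from 9.66 ± 2.27 to 5.64 ± 0.897 CPM (SD, n = 3 libraries per group), or a log2FC of -0.77 (SE 0.126, adjusted p = 2.99e-04, edgeR). GXYLT2, a xylosyltransferase for O-glucose, fell from 11.6 ± 1.56 to 8.20 ± 3.07 CPM, with a log2FC of -0.54 (adjusted p = 0.00576, edgeR). Its groups overlapped, and its within-pair log2 ratios were -0.98, -0.22 and -0.48. POFUT1, the enzyme that attaches O-fucose, fell from 154 ± 8.44 to 118 ± 7.93 CPM, with a log2FC of -0.38 (adjusted p = 3.71e-04, edgeR).

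Some of the calls in these lists were lost without the pairing. Without the replicate block edgeR called none of the genes, with 6, 3, 0 and 2 genes of the lists in the order given here at an unadjusted p-value below 0.05. DESeq2 without the block still called SLC1A5 (adjusted p = 0.0462), UAP1L1 (adjusted p = 9.46e-04), LFNG (adjusted p = 0.0200) and POFUT1 (adjusted p = 0.00897). For UAP1L1 the log2FC was 0.97 without the block in both tools, with an adjusted p of 0.0781 in edgeR. With the block, DESeq2 gave adjusted p-values of 0.118 for GNPDA2, 0.0918 for SLC35D2 and 0.190 for NANP, so these calls were lost. Without replicate 1, edgeR called 2 genes of precursor supply (GNPDA1 and SLC1A5) and 1 of UDP-GlcNAc use (UAP1L1), and GXYLT2 was no longer called (log2FC -0.35, adjusted p = 0.101). NANP was not called without replicate 2 either (adjusted p = 0.216, edgeR), nor were GNPDA2 (log2FC -0.24, adjusted p = 0.198, edgeR) and SLC35D2 (adjusted p = 0.0858, edgeR) without replicate 3.

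**Figure D5:**
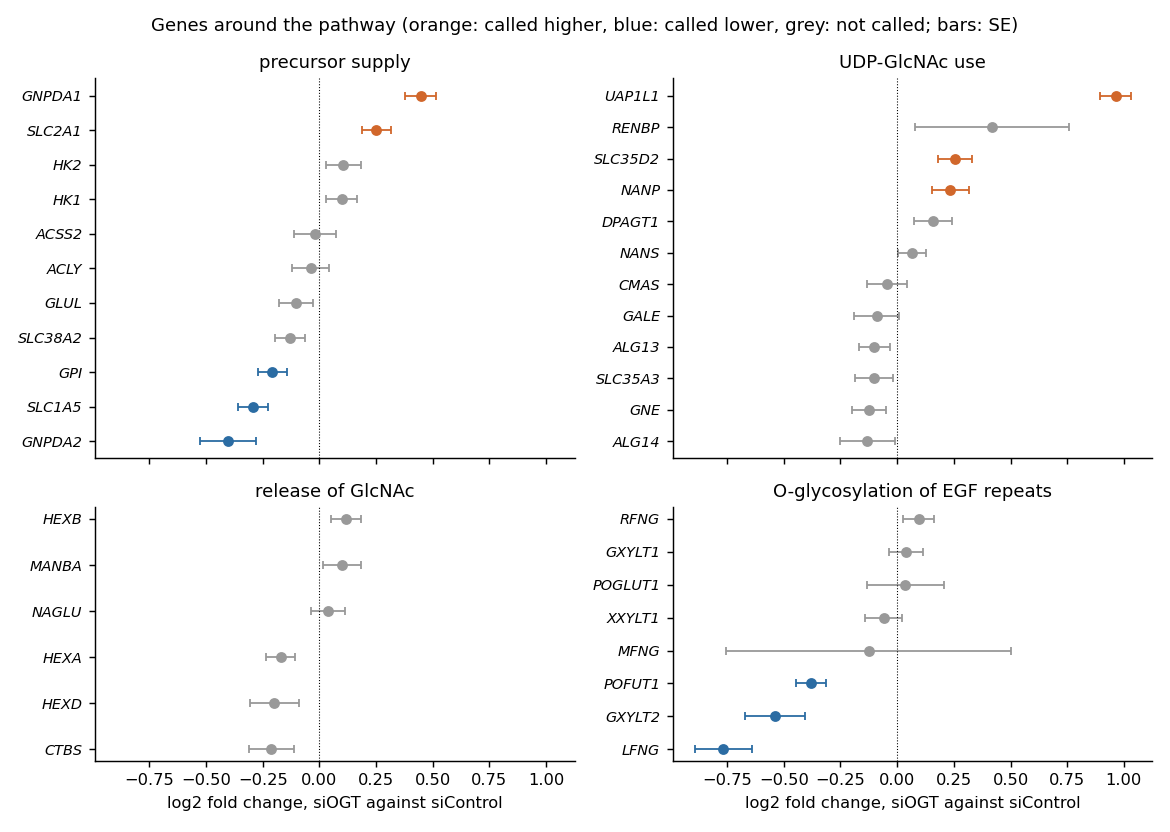
Log2FC, siOGT against siControl, of genes in the 4 lists (1 gene of precursor supply is not drawn), with SE as bars and called genes in colour. UAP1L1 stands out at 0.96 and LFNG at -0.77, and called genes of precursor supply lie on both sides of 0.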

How the data were processed

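RNA was measured in 6 LX-2 libraries, 3 siControl and 3 siOGT. Per the study's methods and the submitters' processing notes, polyadenylated RNA was sequenced from stranded libraries, aligned to hg38 with Bowtie2 2.3.5.1 and quantified per gene with RSEM 1.3.1. The authors deposited RSEM expected counts, estimated counts that were not normalized, in which reads matching several genes are divided between them. A deposited table of the authors' own DESeq2 1.36.0 comparison (mean level, log2 fold change, SE, statistic, p-values) was not used.

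Here expected counts were rounded, genes with a total below 10 were removed (2054 genes with 0.00448% of the counts), and 14853 genes were tested in edgeR 4.0.16 (R 4.3.3) by its two-sided quasi-likelihood F test after TMM scaling, with the replicate number as a block as in the study's methods. P-values were Benjamini-Hochberg adjusted over all genes, and a gene was called at 0.05 or less. SE and 95% confidence intervals were derived from the F statistic, and within-pair ratios used a prior count of 2. The prior degrees of freedom, the weight given to the spread shared across genes, were 15.5. The numbers pair the libraries: deviations from the group means correlated by 0.69, 0.53 and 0.33 between same-numbered libraries over 12373 genes. Replicates differed by more than counting noise in every pair of libraries. Tests were tried on simulated counts. Alternatives were other scalings and filters, DESeq2 1.42.0, limma-voom (limma 3.58.1), no block, and leaving out each replicate.

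The members, lists, markers and tests were chosen with earlier results of these data known. Named were all members and at most 4 called genes per list by absolute log2 fold change. The 3 genes nearest to OGT and to OGA in their within-pair log2 ratios were named too. The methods name a GENCODE annotation. Coordinates and lengths are from GENCODE 44, in which 15906 of 16907 symbols were found. Promoter stretches were in the table for 9 members, without EOGT. Sequences of the siRNAs were not used here, and 1 gene of the precursor supply list enters the counts but is not reported here by itself. Counting errors cover read sampling only.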

Additional observations from a re-analysis of the deposited data

How the results depend on the processing

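The calls of OGT and OGA kept their direction and passed the test under each of the 11 alternatives. Members called numbered 2 under 9 of them and 3 under library totals alone (EOGT, 0.20) and without replicate 3 (GNPNAT1). The number of genes called was 2415 by DESeq2 with the replicate block, 130 by edgeR without the block, 849 by DESeq2 without it, and 1803 to 3439 when 1 replicate was left out, against 3766. In precursor supply, 0 genes were called by edgeR and 1 by DESeq2 without the block (6 each at an unadjusted p-value below 0.05), and 2 to 6 when 1 replicate was left out, against 6. For UDP-GlcNAc use the counts were 1 by DESeq2 with the block, 0 by edgeR (3 at an unadjusted p-value below 0.05) and 1 by DESeq2 without it, and 1 to 3 with a replicate left out, against 3. The list of O-glycosylation of EGF repeats had 0 calls by edgeR without the block (2 at an unadjusted p-value below 0.05), against 3. With 1 replicate left out, log2 fold changes ranged from -0.24 to -0.014 for GFPT2, from -0.20 to -0.097 for GNPNAT1, from 0.095 to 0.19 for UAP1, from -0.058 to 0.13 for PGM3, from -0.092 to 0.18 for NAGK and from -0.028 to 0.13 for AMDHD2, and the difference of the log2 GFPT2 to GFPT1 ratio from -0.081 to 0.20. The common dispersion was 0.00449 with the block and 0.0193 without it. The cause of the shifts between settings was not tested.

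With 3 pairs of 1 cell line, differences of about 0.2 on the log2 scale were near the limit of the test, and RNA levels give no account of protein or enzyme activity. Transcript use was not measured.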
